A study of Mus musculus with 6 samples.

Results

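The tricarboxylic acid cycle is the ring of mitochondrial reactions that oxidises acetyl-CoA to carbon dioxide and hands electrons to the respiratory chain, and in skeletal muscle its enzymes follow the mitochondrial content of the fibres. Described here are the transcripts of 9 nuclear genes for enzymes of that cycle, Cs, Idh3a, Idh2, Ogdh, Dlst, Sucla2, Suclg1, Fh1 and Mdh2, taken by symbol from 35491 named entries. All 9 were present once and all 9 passed the filter of a mean value of at least 1. The samples were gastrocnemius, the large calf muscle, from male mice of C57BL/6J background aged 20 weeks and fed chow. Each group had 3 mice, Control (C57BL/6J) or Ogg1Tg, with no other treatment. Ogg1Tg mice carry human OGG1-1a, a DNA glycosylase that removes 8-oxoguanine, fused to a mitochondrial targeting signal. The transgene runs from a CMV/AG promoter, for which the labels name no cell type, and how many founder lines stand behind the mice is not given. No further allele or agent is named. Reads of the human transgene were not analysed here, so the genotype labels have no check from it. The p-values weigh the difference between the groups against the spread between these 6 mice. Nothing in the labels gives litters or days, so a litter or day shared within a group cannot be told apart from genotype. The study was set up to learn what mitochondrial OGG1 does, here read from the cycle's transcripts. Values of a group are listed throughout in the order of replicates 1, 2 and 3.

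The deposited values are gene read counts divided by 1 factor per library, so they compare 1 gene between libraries and not different genes. Depth was 45189860 to 56126407 reads in named genes per library. Each member had 3917 to 45007 reads per library, so that counting error alone is a coefficient of variation (CV) of 0.471% to 1.60%. Fibre markers were high in all libraries, with Ttn at 14.2% to 17.2% of reads. Ogg1Tg replicate 3 stood apart. The 10 lymphocyte markers summed to 16577 there against 218 to 300.2 in the other 5 libraries, and the 8 adipocyte markers to 22213 against 15398 to 17936. The 15 muscle fibre markers summed to 9707520 there against 13792100 to 16589200. The deposited values of all named genes also summed to less there, 45456600 against 62344500 to 72210000. As a summed share of named reads the fibre markers lay within the range of the other 5 libraries, at 21.4% against 20.9% to 24.3%. Most of that share was Ttn, at 15.1% there. With each library rescaled to the same total, the median of the 15 markers was lowest there. It was -0.078 (log2 from the Control mean), against -0.011 to 0.041 in the other 5 libraries. The 9 macrophage markers summed to 9931 there and to 3543 to 6862 elsewhere. Cd79a, a B cell receptor subunit, was at 1749 there and at 4.16 to 16.7 elsewhere, and Adipoq, the adipocyte hormone, at 904 and at 161 to 248. Ms4a1, Cd3e, Cd3g and Lck, lymphocyte genes, were each at 0 in at least 1 library. The results on the members are therefore also given without that library. In whole muscle, fewer fibres in the piece and less RNA per fibre cannot be told apart.

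RefSeq promoter windows on GRCm38.p6 were found for 8 of the 9 members (not for Idh3a). They are shown for 3 of them, because Cs and Mdh2 represent the members that moved together and Idh2 the member that did not. Each run is the 250 bases before the RefSeq transcript start, 5′ to 3′ on the strand of the gene. Capitals mark GGGCGG, the SP1 box, on either strand (CCGCCC where it lies on the other strand). Cs lies at chr10:128337477-128337726 on the plus strand, Mdh2 at chr5:135778399-135778648 on the plus strand and Idh2 at chr7:80115351-80115600 on the minus strand.
Cs: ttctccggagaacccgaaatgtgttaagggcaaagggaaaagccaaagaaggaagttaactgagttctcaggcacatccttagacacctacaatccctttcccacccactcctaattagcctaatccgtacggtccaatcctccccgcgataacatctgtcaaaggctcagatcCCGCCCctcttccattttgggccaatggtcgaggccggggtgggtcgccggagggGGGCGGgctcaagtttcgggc
Mdh2: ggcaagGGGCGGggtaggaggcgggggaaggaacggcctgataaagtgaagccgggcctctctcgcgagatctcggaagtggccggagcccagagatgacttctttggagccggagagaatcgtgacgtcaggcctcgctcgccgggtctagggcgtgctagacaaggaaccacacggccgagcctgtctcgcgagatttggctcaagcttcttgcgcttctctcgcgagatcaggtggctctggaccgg
Idh2: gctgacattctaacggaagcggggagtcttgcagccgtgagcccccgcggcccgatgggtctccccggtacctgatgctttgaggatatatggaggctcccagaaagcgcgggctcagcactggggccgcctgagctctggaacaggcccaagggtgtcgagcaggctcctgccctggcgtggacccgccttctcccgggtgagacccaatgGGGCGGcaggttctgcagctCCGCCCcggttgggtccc

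The GC content of these windows was 55.2% for Cs, 63.2% for Mdh2 and 67.2% for Idh2, against a median of 52.4% over 32851 windows of the same length. The SP1 box was found in 8 of the 13 member windows and in 32.7% of all windows. Counted by gene, 7 of the 8 members had it in at least 1 window, Suclg1 being the exception. Ogdh has 6 windows, and the only Sucla2 window, from 73552536 to 73552785, lies inside the gene as GENCODE M21 places it. In Idh2 the nearest box lies 12 bases before the RefSeq start and in Cs 15, while the single box of Mdh2 lies 238 bases before it. The Mdh2 and Idh2 windows reach into the genes as GENCODE M21 places them (Mdh2 from 135778480, Idh2 up to 80115392). These distances therefore depend on the start used and do not rank the genes. AAGGTCA, the core bound by oestrogen-related receptors, was found in none of the 13 member windows and in 4.08% of all windows, and its extended form TCAAGGTCA, which contains it, in none and in 0.387%. CCGGAAG, the ETS core that GABP binds, was found in none and in 6.91% of all windows. GCATGCGC, the core of the NRF1 motif, was found in 2 of the 6 Ogdh windows, some of which overlap, and in 2.26% of all windows. Both strands were searched for each motif. A match describes the letters of the window only.

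In Ogg1Tg muscle the 9 cycle members had lower means than in Control muscle, with log2 fold changes from -0.54 for Mdh2 to -0.22 for Idh2, and none passed the test. After rescaling by muscle fibre markers 6 of the 9 lay above 0, with the median of all genes at 0.33, as described further on. The test was limma on log2(value + 1) over 23312 genes, called at a Benjamini-Hochberg adjusted p under 0.05. It called 127 genes, 0.545% of those tested, and 0 of the 9 members. The limma adjusted p of the members ran from 0.37 to 0.82. At an unadjusted p under 0.05 there were 3 members, Mdh2, Idh3a and Fh1, beside 2570 of the 23312 genes. The median over the 9 members was -0.33, against -0.025 over all genes tested. Of the 9 members, 5 had all Ogg1Tg values under all Control values, as did 11.3% of all genes tested. Without Ogg1Tg replicate 3, limma called 425 genes, 1.86% of those tested, and again 0 members, with a member median of -0.17 and adjusted p from 0.16 to 0.93. With edgeR on recovered reads 0 members were called, against 0.845% of genes fitted, and 2 had an unadjusted p under 0.05, as had 2460 of 17514 genes. With DESeq2 0 members were called, against 2.19% of genes fitted, and 2 had an unadjusted p under 0.05, as had 2444 of 26161 genes.

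**Figure D1:**
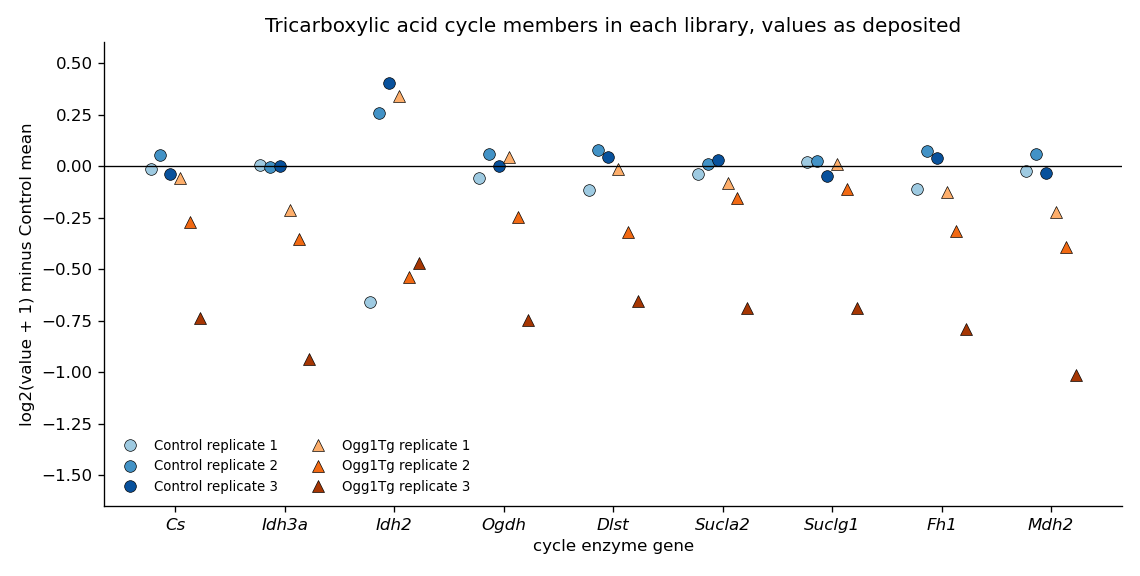
Difference of each library from the Control mean on the log2(value + 1) scale (y axis) for the 9 members (x axis); circles are Control and triangles Ogg1Tg libraries. For 8 members the Control libraries lie within -0.12 to 0.076 and Ogg1Tg replicate 3 lies lowest, at -1.02 to -0.65; Idh2 spreads from -0.66 to 0.40 within Control alone.

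Citrate synthase, encoded by Cs, condenses acetyl-CoA with oxaloacetate and is a common measure of mitochondrial content. Cs lies on chromosome 10 from 128337734 to 128362479 of mm10, plus strand, as GENCODE M21 gives it. Its values were 33242, 34782 and 32714 in the Control mice, against 32231, 27780 and 20166 in the Ogg1Tg mice. The groups did not overlap, although Ogg1Tg replicate 1 lay just under the lowest Control value. The means were 33579 ± 1075 and 26726 ± 6101 (SD, n = 3), a log2 fold change of -0.36 ± 0.20 (SE, limma adjusted p = 0.57), or -0.17 without Ogg1Tg replicate 3. Csl, a close relative with 91.9% identity over 1522 aligned bases, had a mean of 63.0.

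Isocitrate is oxidised to 2-oxoglutarate by 2 mitochondrial enzymes. Idh3a encodes the catalytic subunit of the NAD-dependent enzyme, and Idh2 encodes the NADP-dependent one, which also supplies NADPH for peroxide removal. Idh3a, on chromosome 9 from 54586334 to 54604661 on the plus strand, measured 23309, 23189 and 23246 in the Control mice. The Control CV of 0.257% was smaller than the counting error of a single library. In the Ogg1Tg mice Idh3a measured 20034, 18189 and 12140. All Ogg1Tg values lay under all Control values, with a log2 fold change of -0.50 ± 0.20 (SE, limma adjusted p = 0.40). Without Ogg1Tg replicate 3 it was -0.28 ± 0.094 (SE, limma adjusted p = 0.19).

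Idh2, on chromosome 7 from 80094846 to 80115392 on the minus strand, followed another pattern. Its values were 5878, 11094 and 12272 in the Control mice, against 11754, 6384 and 6706 in the Ogg1Tg mice. Low and high libraries were found in both groups, and the Ogg1Tg range lay inside the Control range. The Control CV was 34.9%, against 0.257% to 7.06% for the other 8 members. The log2 fold change was -0.22 ± 0.31 (SE, limma adjusted p = 0.82). It was -0.10 without Ogg1Tg replicate 3, and with each library left out in turn it ran from -0.55 (without Control replicate 1) to -0.022 (without Control replicate 3). Across the 6 libraries Pearson's r between Idh2 and the mean of the other 8 members was 0.52, while each other member had r of 0.93 to 0.99 with the mean of the remaining 8. These correlations describe 6 libraries that share the scaling and carry no test.

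The oxoglutarate dehydrogenase complex makes succinyl-CoA. Ogdh encodes its decarboxylating E1 subunit and Dlst its succinyltransferase E2 core. Ogdh, on chromosome 11 from 6291633 to 6356642 on the plus strand, measured 46541, 50504 and 48443 in the Control mice. It measured 49993, 40826 and 28860 in the Ogg1Tg mice, so that Ogg1Tg replicate 1 lay inside the Control range and the other 2 below it. The log2 fold change was -0.32 ± 0.23 (SE, limma adjusted p = 0.65), or -0.10 without Ogg1Tg replicate 3. Dlst, on chromosome 12 from 85110833 to 85134845 on the plus strand, measured 10022, 11466 and 11205 in Control muscle against 10760, 8701 and 6918 in Ogg1Tg muscle. It had the same order of Ogg1Tg libraries, with a log2 fold change of -0.33 ± 0.18 (SE, limma adjusted p = 0.53), or -0.17 without the same library.

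Succinyl-CoA ligase releases succinate and makes ATP or GTP. Suclg1 encodes the shared alpha subunit, Sucla2 the beta subunit of the ATP-forming enzyme and Suclg2 that of the GTP-forming enzyme. Sucla2, on chromosome 14 from 73525319 to 73596142 on the plus strand, measured 13008, 13463 and 13620 in Control muscle against 12616, 11983 and 8281 in Ogg1Tg muscle. The groups did not overlap, and the log2 fold change was -0.31 ± 0.18 (SE, limma adjusted p = 0.57), or -0.12 without Ogg1Tg replicate 3. Suclg1, on chromosome 6 from 73248382 to 73276911 on the plus strand, measured 6677, 6700 and 6368 in Control muscle against 6633, 6084 and 4085 in Ogg1Tg muscle. Ogg1Tg replicate 1 lay inside the Control range. Its log2 fold change of -0.26 ± 0.18 (SE, limma adjusted p = 0.63) became -0.051 ± 0.088 without Ogg1Tg replicate 3.

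Fumarase, encoded by Fh1, hydrates fumarate to malate, and Mdh2 encodes the mitochondrial malate dehydrogenase, which closes the cycle. Fh1, on chromosome 1 from 175600374 to 175625635 on the minus strand, measured 6317, 7162 and 6996 in Control muscle against 6239, 5469 and 3940 in Ogg1Tg muscle. The groups did not overlap by a narrow margin, and the log2 fold change was -0.41 ± 0.18 (SE, limma adjusted p = 0.44), or -0.22 without Ogg1Tg replicate 3. Mdh2, on chromosome 5 from 135778480 to 135790398 on the plus strand, measured 16371, 17366 and 16255 in the Control mice. In the Ogg1Tg mice it measured 14284, 12697 and 8241, all under the Control range. Its log2 fold change was -0.54 ± 0.21 (SE, limma adjusted p = 0.37), and -0.31 ± 0.095 (SE, limma adjusted p = 0.16) without Ogg1Tg replicate 3. Mdh2 was the lowest member in each of 21 fits that differed in scaling, filter, tool or libraries, and Idh3a was second in 20 of them, without Control replicate 1 being the exception. These fits share samples and are not independent of each other.

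**Figure D2:**
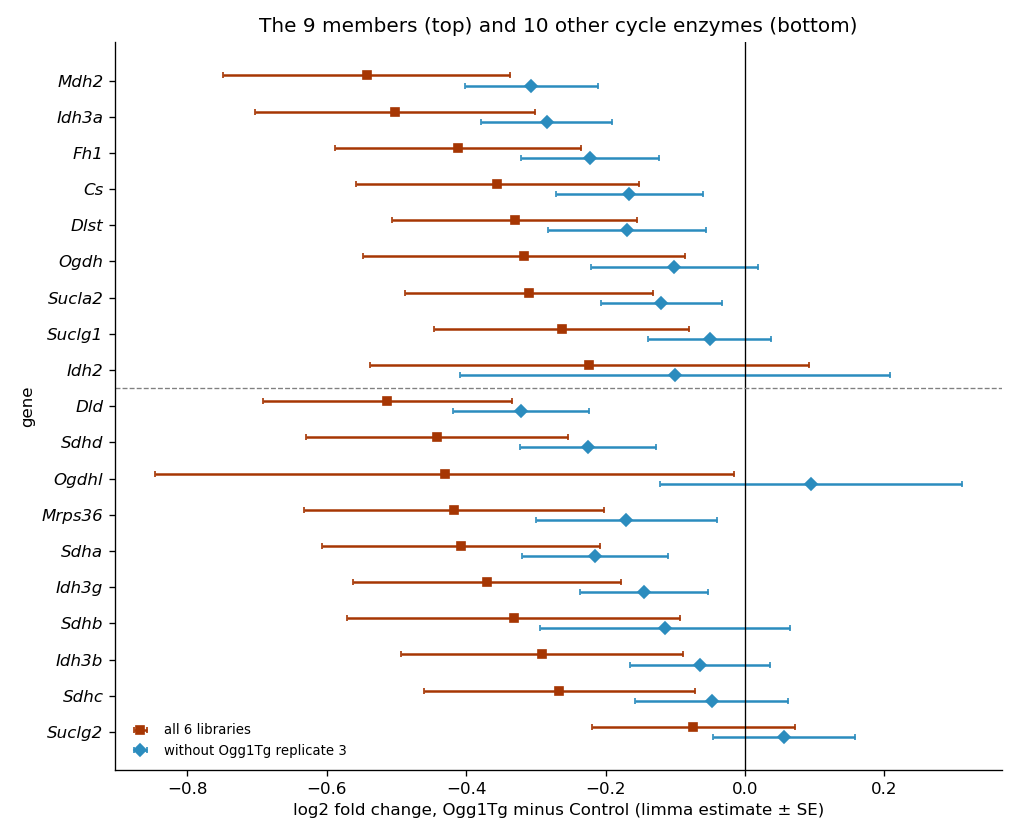
Limma log2 fold change, Ogg1Tg minus Control, with its SE as bars (x axis), for the 9 members above the dashed line and 10 other enzymes or subunits of the cycle below it; squares use all 6 libraries and diamonds leave out Ogg1Tg replicate 3. With values as deposited all 9 members lie below 0 in both fits and closer to 0 without that library; after fibre marker rescaling 6 of them lie above 0.

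The size of these differences rested on how the libraries were scaled. The 9 members together took 0.223%, 0.260% and 0.259% of named reads in the Control mice, against 0.264%, 0.202% and 0.219% in the Ogg1Tg mice. As shares of reads the groups overlapped, with means of 0.247% ± 0.021 and 0.228% ± 0.032 (SD, n = 3). With values as deposited, the member median in the Ogg1Tg mice lay at -0.059, -0.32 and -0.74 from the Control mean (log2). Muscle fibre markers had medians of -0.11, 0.036 and -0.67 in the same libraries. On the deposited scale the members and the fibre markers were thus both low in Ogg1Tg replicate 3. In Ogg1Tg replicate 2 the members were low and the fibre markers were not.

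Rescaling each library to the same total of named reads moved the median of all genes to 0.22. The member median was then -0.085, and 8 of 9 members stayed below 0, Idh2 being at 0.022. After this rescaling Idh3a alone had groups that did not overlap, as had 4.68% of all genes in the same direction. Its rescaled values were 20333, 21579 and 22186 in Control muscle against 20242, 16768 and 16823 in Ogg1Tg muscle. Rescaling by the geometric mean of the fibre markers moved the median of all genes to 0.33 and the member median to 0.029, with Mdh2, Idh3a and Fh1 below 0 and the other 6 members above. By library, the member median per fibre marker was 0.089, -0.25 and 0.13 in the Ogg1Tg mice. Ogg1Tg replicate 2, the library low on this scale, had lymphocyte markers at 218, beside 220 in Control replicate 1. Its macrophage markers had the lowest sum of any library, 3543 against 4158 to 9931. Its Schwann cell markers had the highest, 7851 against 4064 to 6324, as had its fibre markers, 16589200 against 9707520 to 16245400. Its adipocyte, endothelial, fibroblast and erythroid sums lay inside the range of the other libraries. Whether cell content bears on the member values of Ogg1Tg replicate 2 was not tested. Quantile normalization gave a member median of -0.10, with Cs at -0.071, Ogdh at -0.016 and Idh2 at -0.0096, and 7 of the 9 members lay below the median of all genes. In the other 20 of 21 fits, fibre marker and library total rescaling among them, all 9 members lay below the median of all genes. None of the members was called under any of these scalings. The part of the lymphocyte and adipocyte markers of Ogg1Tg replicate 3 in its low member values was not tested.

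**Figure D3:**
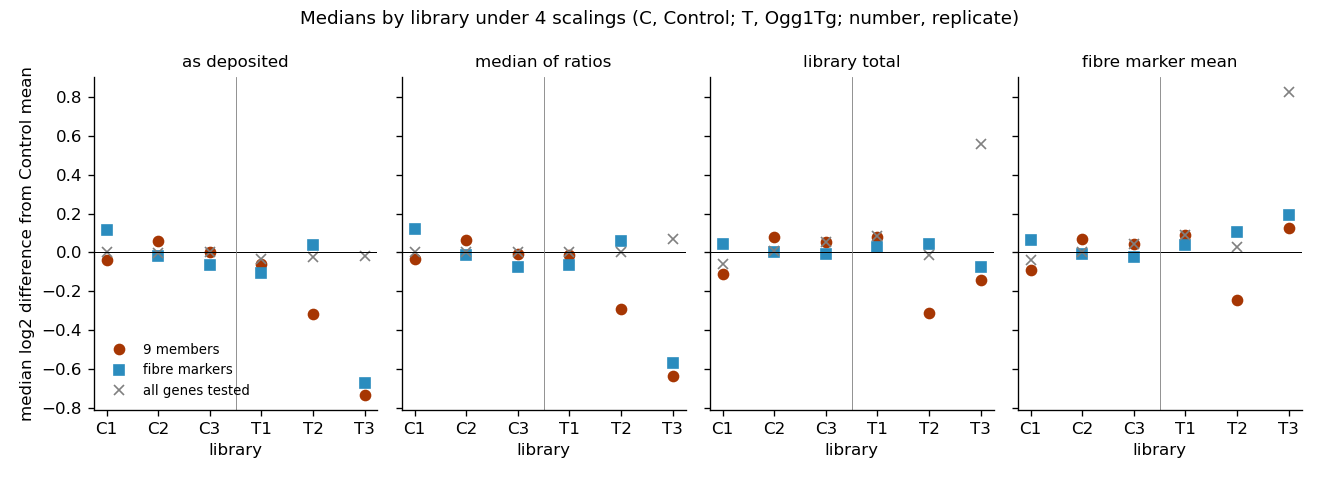
Median log2 difference from the Control mean (y axis) in each library (x axis) for the 9 members, 15 muscle fibre markers and all genes tested, under 4 ways of scaling the libraries, 1 per panel. With values as deposited the members of Ogg1Tg replicate 3 lie at -0.74, and after rescaling by fibre markers at 0.13; those of Ogg1Tg replicate 2 stay between -0.32 and -0.25 in all 4 panels.

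Levels of different genes were compared only per length, as the deposited value per kb of all annotated exons joined. In Control muscle Ogdh was highest at 8889 ± 363 per kb (SD, n = 3), followed by Cs at 5811 ± 186. Mdh2 at 4678 ± 171, Idh3a at 4584 ± 11.8 and Idh2 at 3767 ± 1315 had ranges that overlapped their neighbours. Sucla2, at 3351 ± 79.7 per kb, also overlapped the range of Idh2. Fh1 followed at 2012 ± 132, Suclg1 at 1426 ± 40.2 and Dlst at 1140 ± 80.5, each clear of its neighbours. The span from Ogdh to Dlst was 7.80-fold in Control. Dlst has 9.559 kb of annotated exon, the longest of the 9, and its place depends on how much of that is used in muscle. In Ogg1Tg muscle the order was the same except that Idh3a, at 3310 ± 814 per kb, and Mdh2, at 3296 ± 879, changed places within their spread.

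**Figure D4:**
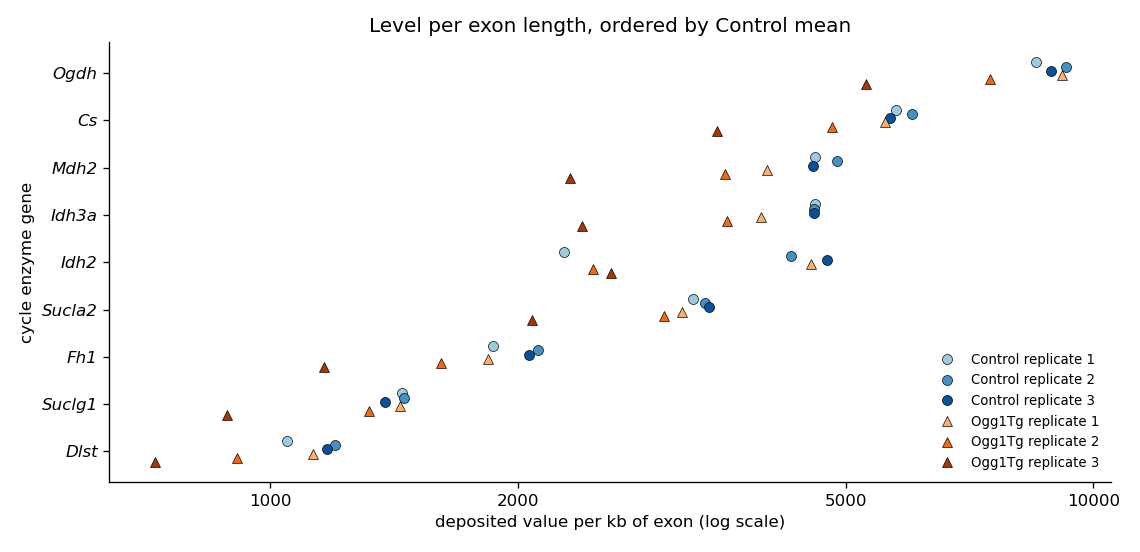
Deposited value per kb of exon on a log axis (x axis) for the 9 members, ordered by the Control mean (y axis), with 1 point per library. Ogdh is highest and Dlst lowest in each library, and Idh2 has the widest spread within Control.

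Ratios between partner genes within a library do not depend on the scaling. Of 8 ratios, 2 had groups that did not overlap. The ratio of Cs to Mdh2, the enzymes that use and supply oxaloacetate, was 2.03, 2.00 and 2.01 in Control muscle against 2.26, 2.19 and 2.45 in Ogg1Tg muscle. Its means were 2.02 ± 0.014 and 2.30 ± 0.13 (SD, n = 3). The ratio of Sucla2 to Suclg2, the beta subunits for ATP and GTP, was 6.02, 6.03 and 6.16 in Control muscle against 5.06, 5.71 and 4.74 in Ogg1Tg muscle. Its means were 6.07 ± 0.074 and 5.17 ± 0.49 (SD, n = 3). Both had a two-sided exact permutation p = 0.1, the smallest that 3 against 3 allows, and 0.4 after Benjamini-Hochberg adjustment over the 8 ratios. Suclg2 itself measured 2201 ± 37.9 and 2113 ± 374, with a log2 fold change of -0.074 (limma adjusted p = 0.88), and 0.056 without Ogg1Tg replicate 3. Without that library the log2 differences of the ratios were 0.14 for Cs over Mdh2 and -0.18 for Sucla2 over Suclg2.

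The other 6 ratios overlapped between the groups. Fh1 over Sdha was the most even, at 0.234 ± 0.006 in Control and 0.233 ± 0.002 in Ogg1Tg muscle (SD, n = 3, exact permutation p = 0.8). Ogdh over Dlst was 4.46 ± 0.17 and 4.50 ± 0.29, and Sucla2 over Suclg1 was 2.03 ± 0.097 and 1.97 ± 0.063. Idh3a over Idh2 ranged from 1.89 to 3.97 within Control. Idh2 over Idh1, its cytosolic relative, was 13.8 ± 4.11 and 10.3 ± 1.66, and Mdh2 over the cytosolic Mdh1 was 1.04 ± 0.17 and 0.999 ± 0.21. The exact permutation p of these 6 ratios ran from 0.3 to 0.8.

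**Figure D5:**
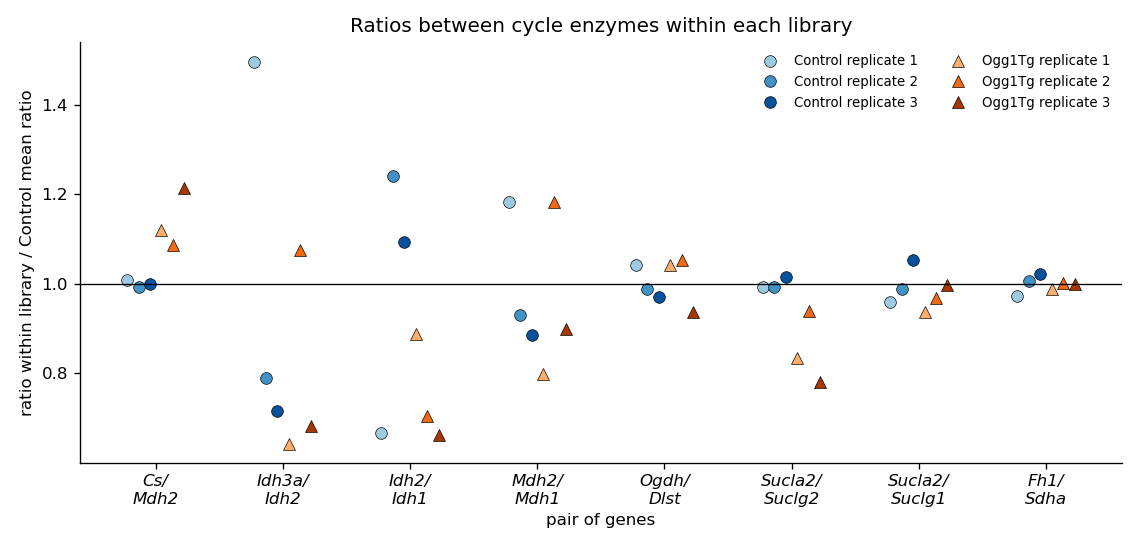
Ratio of 2 genes within each library divided by the Control mean of that ratio (y axis) for 8 pairs (x axis); circles are Control and triangles Ogg1Tg libraries. For Cs over Mdh2 all Ogg1Tg points lie above the Control points and for Sucla2 over Suclg2 all lie below; pairs with Idh2 spread widely within Control.

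The remaining enzymes and subunits of the cycle were likewise lower in the mean, with values as deposited. Of 11 tested, 0 were called in either direction and 11 lay below 0, with a median of -0.37, against 52.8% of all genes below 0. Without Ogg1Tg replicate 3 the median was -0.12 and 9 of 11 lay below 0. Dld, the E3 subunit that the oxoglutarate and pyruvate dehydrogenase complexes share, measured 9104 ± 518 in Control and 6491 ± 1466 in Ogg1Tg muscle (SD, n = 3), without overlap (log2 fold change -0.51 ± 0.18, limma adjusted p = 0.33). Sdha, the flavoprotein of succinate dehydrogenase, measured 29159 ± 1317 and 22389 ± 5130, and its iron-sulphur subunit Sdhb 10287 ± 1888 and 8370 ± 2755. Idh3b and Idh3g, the other subunits of the NAD-dependent enzyme, had log2 fold changes of -0.29 and -0.37. The log2 fold changes without Ogg1Tg replicate 3 were -0.065 for Idh3b, -0.14 for Idh3g and -0.32 for Dld. After fibre marker rescaling Idh3b, Sdhb, Sdhc and Suclg2 were among those above 0, Sdhc being named after its value was seen. The median of 44 nuclear subunits of oxidative phosphorylation was -0.32 and that of 11 genes of the pyruvate dehydrogenase complex and its regulators -0.32. Without Ogg1Tg replicate 3 these medians were -0.084 and -0.19.

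Among 26 enzymes and carriers that feed, drain or run parallel to the cycle, 1 was called, Pck2, and it rose. Pck2 is the mitochondrial phosphoenolpyruvate carboxykinase, which draws oxaloacetate from the cycle and is a known target of the integrated stress response. It measured 172, 155 and 208 in Control muscle against 989, 538 and 808 in Ogg1Tg muscle, with no overlap. The log2 fold change was 2.09 ± 0.24 (SE, limma adjusted p = 0.0065), and 2.04 without Ogg1Tg replicate 3 (limma adjusted p = 0.0026). It did not pass without Control replicate 1 or 2 (limma adjusted p = 0.068 and 0.071) or with no variance trend (limma adjusted p = 0.096), where its log2 fold changes were 2.07, 1.99 and 2.09. The other 25 did not pass, and the median of the 26 was -0.054, or -0.097 without Ogg1Tg replicate 3. Of the abundant ones, the aspartate-glutamate carrier Slc25a12 measured 21049 ± 1187 and 15456 ± 3733 without overlap, and the transaminases Got1 11804 ± 1678 and 12665 ± 5457, Got2 19258 ± 1430 and 16304 ± 5038, and Gpt2 13420 ± 2843 and 14101 ± 4551. Idh1 measured 702 ± 98.8 and 785 ± 157. Of 14 genes for assembly and cofactors of the cycle enzymes, 0 were called and 12 lay below 0, with a median of -0.19. Their median was -0.083, with 10 below 0, when Ogg1Tg replicate 3 was left out. Of 12 regulators of mitochondrial gene expression 0 were called, with a median of -0.11, or -0.033 without that library.

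The pattern of Idh2 was shared by a few genes of the same list, chosen after their values were seen. By root mean square distance between centred log2 profiles over the 6 libraries, Nnt (0.14), Oxct1 (0.17) and Mdh1 (0.25) were closest to Idh2 among the genes of the cycle and its related lists. Nnt, the gene of the mitochondrial transhydrogenase, measured 1650, 2442 and 2860 in Control muscle against 3256, 1656 and 1899 in Ogg1Tg muscle. Whether its transcript yields a working enzyme in these mice was not tested. Oxct1, the first enzyme of ketone body use, measured 9889, 16787 and 16204 in Control muscle against 14923, 8457 and 7840 in Ogg1Tg muscle. Mdh1 measured 13295, 17927 and 17648 in Control muscle against 17194, 10316 and 8815 in Ogg1Tg muscle. Chosen by likeness to Idh2, each of these genes had Control replicate 1 and Ogg1Tg replicates 2 and 3 as its low libraries. The 11 slow fibre markers were also low in Control replicate 1, with a median of -0.66 against 0.20 and 0.51 in the other Control mice. In the Ogg1Tg mice they had medians of 0.80, 0.94 and 0.67. They summed to 85817, 159885 and 177093 in Control muscle and to 195575, 198780 and 126398 in Ogg1Tg muscle. By the sum, Ogg1Tg replicate 3 thus lay below Control replicates 2 and 3. Lymphocyte, fibroblast, macrophage and endothelial markers also had their lowest Control median in Control replicate 1, at -0.46, -0.32, -0.22 and -0.18. Fast fibre markers went the other way, with 0.24, -0.037 and -0.18 in the Control mice. Adipocyte and Schwann cell markers were also highest among Control in Control replicate 1. Whether fibre type bears on Idh2 was not tested.

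The genes whose profile over the 6 libraries lay closest to the mean of the 9 members were sought among 5519 other genes with a mean of at least 1000. They were Aifm1, Atp5j2, Sdha, Slc25a3, Pde7b and Slc25a11, with root mean square distances of 0.021 to 0.041 on the log2 scale. Aifm1, a flavoprotein of the mitochondrial intermembrane space, measured 1408, 1613 and 1575 in Control muscle against 1442, 1221 and 884 in Ogg1Tg muscle. Slc25a3, the mitochondrial phosphate carrier, measured 28978 ± 1120 and 22915 ± 4795 (SD, n = 3), and Atp5j2, a subunit of ATP synthase, 3812 ± 261 and 3082 ± 686. Slc25a11, the oxoglutarate carrier, measured 6005 ± 327 and 4952 ± 1127, and Pde7b, a phosphodiesterase, 3068 ± 261 and 2424 ± 503. None of these 6 genes passed limma, with adjusted p from 0.47 to 0.57. They were chosen by likeness to the members in the same 6 libraries. Their direction and their limma outcome largely follow from that choice and add no separate result.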

How the data were processed

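Gastrocnemius RNA of 3 Control and 3 Ogg1Tg mice was extracted with a column kit and sequenced, with libraries made with NuGen Ovation Universal reagents per the labels' protocols. Trimmomatic, SAMtools, HTSeq and mm10 are named in the submitters' processing notes. For the aligner, annotation, strand setting and library factors, the sources used here give nothing. The deposited signal, called FPKM in the file names, holds gene counts divided by 1 factor per library: within 0.01, 100% of values were whole multiples of 1 step per library, a check that is weak for Ogg1Tg replicate 3, whose step is 1.006. The design assumed a normalized signal and was kept. Of 37315 entries, 1824 without a gene name, with 2.38% to 3.54% of reads, were left out.

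Genes with a mean of at least 1 were tested as log2(value + 1), which understates folds of low genes, with limma 3.58.1 in R 4.3.3 (eBayes with trend, two-sided, Benjamini-Hochberg over all genes). Recovered reads were tested with edgeR 4.0.16 (quasi-likelihood) and DESeq2 1.42.0. The limma, edgeR and DESeq2 functions, at their default settings, were tested on simulated counts with known folds. Ratios used two-sided exact permutation tests. The members, the 17 gene lists and the alternatives were chosen with earlier results of these data known. Besides the members, genes were named if called, if among the 6 highest means of the cycle and related lists, if partners in a ratio, if first in a marker list, or if among the 6 closest profiles; other exceptions are stated. Some items that the rule or a list holds are not reported here; the lists' counts include them. Coordinates and exon lengths come from GENCODE M21, on the assembly of mm10. No exon of another annotated gene overlapped a member's exons, and copies were sought with BLAST 2.17.0 at 85% identity over 200 bases. No library repeated another: chi-square per gene was at least 13.9 for each pair.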

Additional observations from a re-analysis of the deposited data

How the results depend on the processing

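The tried settings were another pseudocount (0.1), filters at a mean of 5 or none, 3 rescalings, no variance trend, a replicate block, each library left out, edgeR and DESeq2. Rescaling to the library total, and that rescaling, fibre marker rescaling and edgeR each without Ogg1Tg replicate 3, were added after seeing the data. In all 21 fits 0 members were called, with the lowest member adjusted p at 0.16 to 0.74. Against 127 genes called, DESeq2 called 573, no variance trend 46, and edgeR, fibre marker and library total rescaling without Ogg1Tg replicate 3 called 362, 496 and 356. Leaving out 1 library gave 35 (Control replicate 3) to 425 (Ogg1Tg replicate 3), with 43 lacking Control replicate 1, 42 lacking Control replicate 2, 62 lacking Ogg1Tg replicate 1 and 194 lacking Ogg1Tg replicate 2. Genes called in the other cycle lists numbered 0 with no variance trend, and 0 to 1 with a library left out. The member median, -0.33, was 0.029 with fibre marker rescaling, -0.057 with that rescaling without Ogg1Tg replicate 3, -0.085 with library total rescaling, -0.10 with quantile normalization, and -0.50 to -0.17 with a library left out. Fibre marker rescaling turned the log2 fold change to 0.031 for Atp5j2, 0.0044 for Cs, 0.029 for Dlst, 0.078 for Got2, 0.14 for Idh2, 0.069 for Idh3b, 0.043 for Ogdh, 0.0018 for Pde7b, 0.028 for Sdhb, 0.057 for Slc25a11, 7.7e-05 for Slc25a3, 0.0499 for Sucla2, 0.097 for Suclg1 and 0.29 for Suclg2. Without Ogg1Tg replicate 3 that rescaling gave 0.028 for Got2, 0.0089 for Idh2, 0.044 for Idh3b, 0.0074 for Ogdh, 0.058 for Suclg1 and 0.16 for Suclg2. Library total rescaling gave 0.022 for Idh2 and 0.17 for Suclg2, and without Ogg1Tg replicate 3 it gave 0.0067 for Idh3b, 0.021 for Suclg1 and 0.13 for Suclg2. Suclg2 was also above 0 with quantile normalization (0.0102), edgeR (0.022) and edgeR without Ogg1Tg replicate 3 (0.10). With a library left out, genes that changed sign ranged from -0.30 to 0.21 (Got1), -0.19 to 0.30 (Gpt2), -0.0029 to 0.27 (Idh1) and -0.20 to 0.056 (Suclg2). Ratios that changed sign ranged from -0.51 to 0.053 (Idh3a over Idh2), -0.23 to 0.061 (Mdh2 over Mdh1), -0.025 to 0.0105 (Fh1 over Sdha) and -0.017 to 0.068 (Ogdh over Dlst). The cause was not tested. With the replicate block limma called 102 genes and 0 members. Over all genes tested, same-numbered libraries did not deviate together (correlations -0.05, -0.01 and 0.03). So few libraries cannot show whether same-numbered mice shared a litter or a day, which the labels do not give.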
